A study of Mus musculus with 4 samples.

Results

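Transcripts of 10 S100 calcium-binding proteins were examined in mouse melanocyte stem cells, which supply pigment cells to growing hair, purified by fluorescence-activated cell sorting. The genes, S100b, S100a1, S100a4, S100a6, S100a8, S100a9, S100a10, S100a11, S100a13 and S100a16, were taken by symbol from a table of 27933 genes. There were 4 RNA-seq libraries. The stressed group (n = 2) received RTX, an agent that the labels name by this abbreviation alone, and the control group (n = 2) received saline. Cells were harvested 12 h after injection, and libraries were made with Smart-Seq V4. The strain, age and sex of the mice, the sort gate and whether the libraries of a group came from separate animals are not given in the sources used here, so that p-values reflect the spread among libraries and this spread may be technical. The study asks, as its title states the subject, how strong sympathetic nerve activity depletes these cells, and its 1 comparison is stressed against control.

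S100 proteins are small calcium sensors with a pair of EF-hand loops. Most act as dimers that change shape on binding calcium and then grip a partner such as an annexin or a cytoskeletal protein, and some are also secreted and bind cell-surface receptors. In skin, S100b is used as a marker of melanocytes and Schwann cells, S100a11, S100a14 and S100a16 are found in epithelial cells, and S100a8 and S100a9 form the heterodimer calprotectin in neutrophils and in injured epidermis.

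Between 9273652 and 11854280 reads per library were assigned to genes. Counts were scaled for library size to CPM with TMM factors, and 3 counts, the limit that a count of 0 allows, correspond to between 0.253 and 0.323 CPM of the library total. This limit covers counting error only. Melanocyte markers, which include Dct, Pmel and Kit, summed over 10 genes to 39254 and 36929 CPM in stressed replicates 1 and 2 and to 22035 and 20820 CPM in control replicates 1 and 2. Keratinocyte markers, which include Krt5 and Krt14, summed over 13 genes to 10832 and 9232 CPM in the stressed libraries and to 28473 and 17072 CPM in the controls. The sorted cells thus carried keratinocyte RNA in every library, and control replicate 1 held more keratinocyte than melanocyte marker RNA. In such bulk samples, fewer cells of a type and less RNA per cell cannot be told apart.

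Levels between genes were compared as CPM per kilobase of exon. S100a11 was the most abundant of the 10 transcripts at 270 ± 116 CPM per kb (SD over all 4 libraries), followed by S100a10 at 166 ± 30 and S100a1 at 145 ± 29. S100a16 stood at 102 ± 57, S100a6 at 66.5 ± 20.3 and S100a13 at 44.5 ± 5.2 CPM per kb. S100b was at 15.1 ± 7.9 and S100a8 at 8.3 ± 2.0 CPM per kb, while S100a4 and S100a9 averaged 0.743 and 0.661. Of neighbours in this order, S100a13 lay apart from S100b, and S100a8 from S100a4, over the ranges of the 4 libraries. All other neighbours overlapped in range. Within libraries, S100a11 stood above S100a10, S100a16 above S100a6 and S100a6 above S100a13 in 4 of 4. S100a10 stood above S100a1, and S100b above S100a8, in 3 of 4, and S100a4 above S100a9 in 2 of 4. S100a1 stood above S100a16 in both stressed libraries, at 182 and 155 CPM per kb against 64.0 and 57.6. In control replicate 2 the order was the same, at 125 and 103 CPM per kb, and in control replicate 1 alone it was turned round, at 119 for S100a1 and 182 for S100a16. Together the 10 transcripts made up 0.0693% and 0.0581% of counts in the stressed libraries and 0.102% and 0.0729% in the controls.

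**Figure D1:**
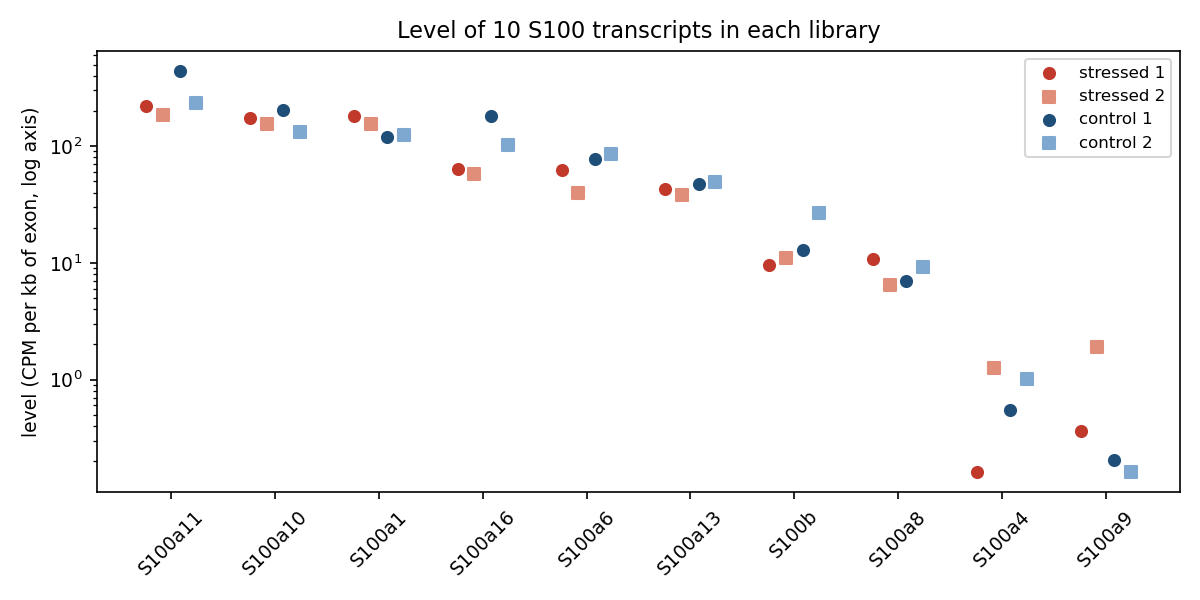
Level of each of the 10 transcripts in each library, in CPM per kilobase of exon on a log axis; red symbols are stressed and blue symbols control libraries, circles replicate 1 and squares replicate 2. S100a11, S100a10 and S100a1 lie above 100 CPM per kb in every library, and S100a4 and S100a9 lie below 2.

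In stressed cells S100a16 was lower than in control cells, S100a11, S100a6 and S100b also had lower values, S100a1 had higher values, and S100a10 and S100a8 overlapped between the groups. Of the 10 genes, 8 passed the low-count filter of edgeR, and S100a4 and S100a9 did not. At an adjusted p below 0.05, edgeR's quasi-likelihood test called 0 of these 8 genes and 0 of all 13348 tested genes (0%). DESeq2 called 1, S100a16, which was lower, against 4.41% of all tested genes, 2.67% lower and 1.75% higher. Before adjustment, the edgeR p was below 0.05 for S100a1, with higher values, and for 3 genes with lower values, S100a16, S100a6 and S100b, against 12.8% of all tested genes, 5.17% higher and 7.6% lower. Both stressed libraries lay on 1 side of both controls in 6 of the 8 genes, 1 higher and 5 lower, against 44.7% of all tested genes, 21.8% higher and 22.9% lower. The median edgeR log2 fold change, stressed over control, was -0.47 over the 8 genes and -0.0091 over all tested genes. With 2 libraries against 2, the smallest p that an exact two-sided permutation test of 1 gene can give is 0.333.

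**Figure D2:**
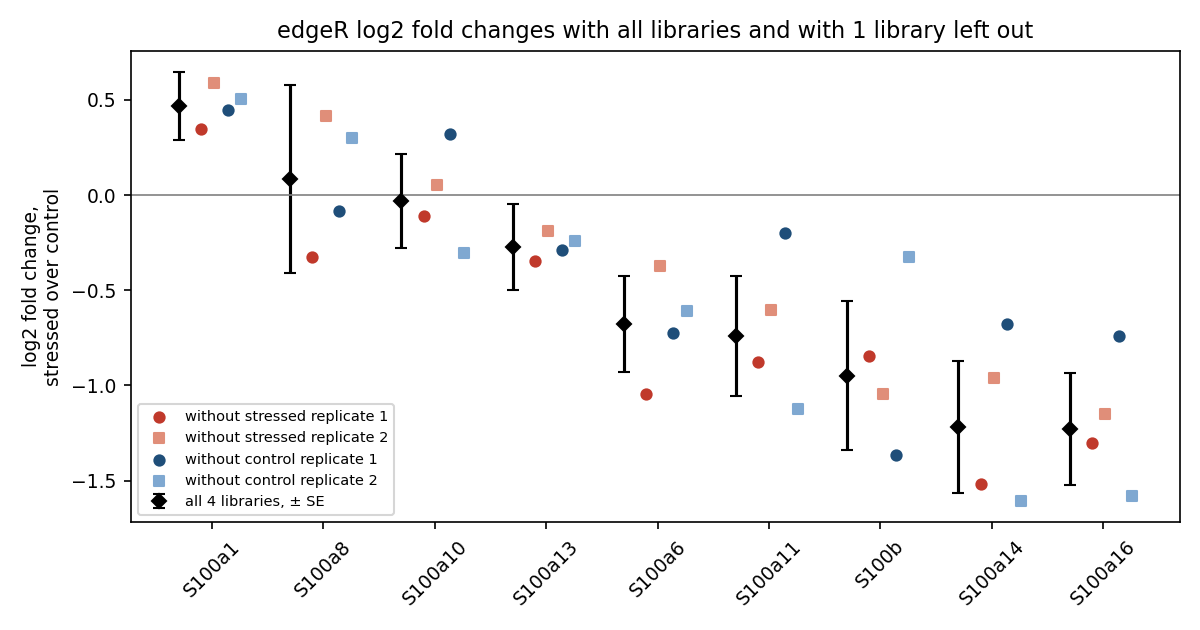
edgeR log2 fold change, stressed over control, of the 8 tested transcripts and of S100a14; black diamonds use all 4 libraries with the standard error as bars, and coloured symbols leave out 1 library each. Whichever library is left out, S100a1 stays above 0 and S100a16, S100a14, S100a11, S100a6, S100b and S100a13 stay below 0. S100a8 and S100a10 lie on both sides.

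S100a16 (chromosome 3, 90537254-90543151, plus strand, mm10), an S100 protein with a single working calcium loop in each chain, had the largest difference of the 8. It was at 103 and 93.1 CPM in stressed replicates 1 and 2, against 295 and 166 CPM in control replicates 1 and 2. Both stressed libraries lay below both controls, and the controls differed from each other by more than the stressed libraries did. The log2 fold change was -1.23 with a standard error (SE) of 0.29. Its adjusted p was 0.191 by edgeR and 0.00392 by DESeq2. Without control replicate 1 the log2 fold change was -0.74, with edgeR and DESeq2 adjusted p values of 0.0520 and 0.0992. Without stressed replicate 1 or 2 the DESeq2 call was also lost, at adjusted p values of 0.138 and 0.443.

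S100a14 (chromosome 3, 90526856-90528837, plus strand), the epithelial S100 gene next to S100a16 and not among the 10, was at 81.2 and 55.3 CPM in the stressed libraries, against 208 and 110 CPM in the controls. It too fell by DESeq2, with a log2 fold change of -1.22, an SE of 0.36 and an adjusted p of 0.0204, while the edgeR adjusted p was 0.245. Without control replicate 1 its edgeR log2 fold change was -0.68, and DESeq2 did not call it there (adjusted p 0.381) or without stressed replicate 1 or 2 (0.0766 and 0.851). S100a11 (chromosome 3, 93520488-93526287, plus strand), a partner of annexin A1 and an abundant protein of keratinocytes, was at 113 and 93.6 CPM in stressed cells and at 226 and 119 CPM in control cells. Both stressed libraries were lower, though stressed replicate 1 lay close to control replicate 2. The edgeR log2 fold change was -0.74 (SE 0.32, adjusted p 0.406). Leaving out control replicate 1 gave -0.20. Leaving out control replicate 2 gave -1.12, where edgeR and DESeq2 both called it, at adjusted p values of 0.0184 and 0.00113.

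Keratinocyte marker RNA moved with these genes. All 13 keratinocyte markers had log2 fold changes below 0, with a median of -1.17. DESeq2 called 7 of them lower, against 2.67% of all tested genes, and edgeR called 0. Sfn and Lgals7 overlapped between the groups. Per 1000 reads of the 13 markers, a ratio that needs no scaling between libraries and was chosen after the values were seen, S100a16 had 9.55 and 10.1 reads in the stressed libraries and 10.4 and 9.72 reads in the controls. The S100a16 ratio therefore overlapped between the groups, at 9.82 ± 0.38 in stressed and 10.04 ± 0.46 in control cells (SD, n = 2). S100a14 likewise overlapped, with 7.5 and 5.99 reads in the stressed libraries against 7.31 and 6.45 in the controls. S100a11 did not, with 10.4 and 10.1 reads in the stressed libraries against 7.92 and 7 in the controls. On this base S100a1, S100a8, S100a10 and S100a13 were also higher in both stressed libraries, and S100b and S100a6 overlapped. The marker sum itself was lower in both stressed libraries, so a gene with level CPM comes out higher on this base. The share of all tested genes that do so was not computed, and nothing is concluded about the S100 genes from these directions. S100a10 had 19.4 and 20.4 reads in the stressed libraries against 8.67 and 9.43 in the controls. With Krt14 alone as the base, the S100a16 ratio also overlapped, at 58.5 and 81.1 reads per 1000 in stressed and 63.5 and 71.3 in control cells. With Krt5 alone it was higher in both stressed libraries, at 103 and 112 against 95.1 and 85.1 in the controls, and likewise with Krt15 alone, at 71.2 and 90.9 against 68.2 and 61.1. The part of keratinocyte RNA in these differences was not tested.

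**Figure D3:**
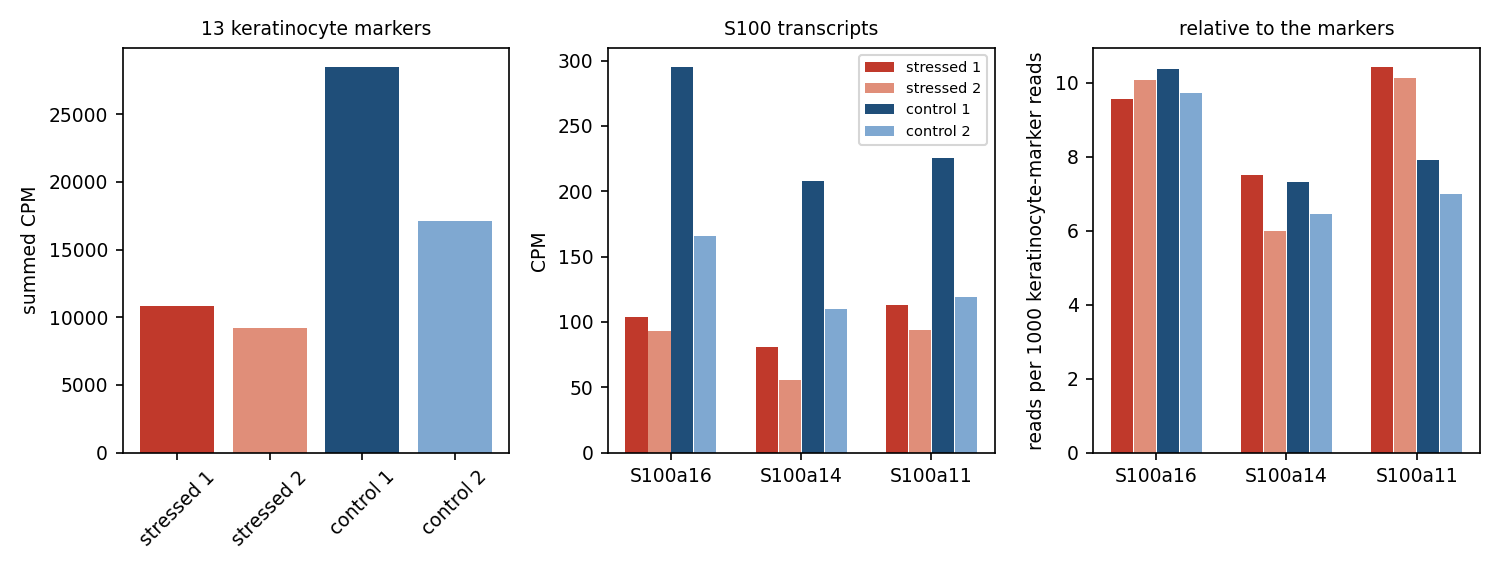
Left, summed CPM of 13 keratinocyte markers per library; middle, CPM of S100a16, S100a14 and S100a11; right, reads of each S100 gene per 1000 reads of the 13 markers, with stressed libraries in red and control libraries in blue. The S100a16 ratio lies between 9.55 and 10.4 in all 4 libraries, while its CPM lies between 93.1 and 295.

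S100a1, a calcium sensor best known from heart and skeletal muscle, where it modulates the ryanodine receptor, differed in the other direction. It lies at chromosome 3, 90511034-90514392, on the minus strand. It was at 126 and 107 CPM in stressed replicates 1 and 2, against 82.5 and 86.4 CPM in control replicates 1 and 2. Both stressed libraries lay above both controls, and the controls were close to each other. The log2 fold change was 0.47 (SE 0.18, edgeR adjusted p 0.355, DESeq2 adjusted p 0.338), and it lay between 0.35 and 0.59 with 1 library left out. The 10 melanocyte markers had log2 fold changes above 0, with a median of 0.74. DESeq2 called 5 of them higher, against 1.75% of all tested genes, and edgeR called 0. Mitf and Sox10 overlapped between the groups. Per 1000 reads of Dct, the pigment gene with the most reads, S100a1 had 7.92 and 7.76 reads in the stressed libraries and 8.44 and 7.78 in the controls, which overlapped. Per 1000 reads of all 10 melanocyte markers it had 3.21 and 2.91 reads in the stressed libraries against 3.74 and 4.15 in the controls, both lower. Every other tested gene of the set was also lower on this base. The melanocyte marker sum itself was higher in both stressed libraries, so a gene with level CPM comes out lower on it. The share of all tested genes that do so was not computed, and nothing is concluded from this direction. The part of melanocyte RNA in the S100a1 difference was not tested.

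S100a13, which is needed for the unconventional release of fibroblast growth factor 1, is the head-to-head neighbour of S100a1. It lies at chromosome 3, 90514435-90524581, on the plus strand, and 42 bases separate the annotated starts of the pair in the deposited files. S100a13 was at 30.4 and 27.3 CPM in the stressed libraries and at 34.2 and 35.5 CPM in the controls. Both stressed libraries were lower, and the log2 fold change was -0.27 (SE 0.23, edgeR adjusted p 0.689). The ratio of S100a1 to S100a13 CPM was 4.15 and 3.93 in stressed cells, against 2.41 and 2.43 in control cells. With S100a1 higher and S100a13 lower in both stressed libraries, this ratio had to be higher there. Neither edgeR nor DESeq2 called either gene. No exon base of either gene is shared with another gene, so the unstranded counting does not mix the pair. The promoter window of S100a1 from RefSeq (GRCm38.p6, the assembly of mm10, chr3:90514281-90514580, minus strand, 250 bases before to 50 after the RefSeq start) is shown because it also holds the start of S100a13. Capitals mark the 104 bases between the RefSeq starts of the pair.
S100a1: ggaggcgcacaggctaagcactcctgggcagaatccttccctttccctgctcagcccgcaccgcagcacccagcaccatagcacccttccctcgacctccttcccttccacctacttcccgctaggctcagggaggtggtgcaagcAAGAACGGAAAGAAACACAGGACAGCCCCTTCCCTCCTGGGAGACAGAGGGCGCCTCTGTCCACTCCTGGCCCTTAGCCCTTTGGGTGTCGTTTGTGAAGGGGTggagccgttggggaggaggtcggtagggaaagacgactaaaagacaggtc

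For comparison with genes of lower value in stressed cells, the windows of S100a11 (chr3:93520246-93520545, plus strand) and of the downstream RefSeq start of S100a16 (chr3:90540896-90541195, plus strand) are given, with motif matches in capitals.
S100a11: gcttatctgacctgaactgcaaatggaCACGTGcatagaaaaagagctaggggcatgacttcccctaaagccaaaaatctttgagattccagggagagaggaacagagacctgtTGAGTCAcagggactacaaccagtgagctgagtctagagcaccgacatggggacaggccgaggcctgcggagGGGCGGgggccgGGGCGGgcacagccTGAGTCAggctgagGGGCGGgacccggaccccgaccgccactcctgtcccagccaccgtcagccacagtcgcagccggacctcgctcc
S100a16: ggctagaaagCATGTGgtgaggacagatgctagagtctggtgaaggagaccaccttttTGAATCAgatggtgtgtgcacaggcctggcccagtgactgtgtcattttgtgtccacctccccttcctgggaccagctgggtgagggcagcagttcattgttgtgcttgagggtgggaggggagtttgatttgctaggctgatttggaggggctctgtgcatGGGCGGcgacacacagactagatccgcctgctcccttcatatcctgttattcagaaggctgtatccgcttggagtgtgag
Searched on both strands were the E-box CACGTG and the M-box core CATGTG, both bound by Mitf-type factors, the AP-1 site TGANTCA, the GC box GGGCGG and the TATA box TATAAA. The S100a11 window held 1 E-box, 2 AP-1 sites and 3 GC boxes, and that of S100a16 held 1 M-box core, 1 AP-1 site and 1 GC box. No matches of different motifs shared bases. The window of the other RefSeq start of S100a16 and those of S100a1, S100a13 and S100b held 0 matches. The S100a6 window held 1 E-box, that of S100a8 an M-box core and a TATA box, that of S100a9 a GC box and a TATA box, and that of S100a4 a TATA box. Of 32851 windows of this length, 7.15% held the E-box, 14.2% the M-box core, 7.81% the AP-1 site, 35.7% the GC box and 13.6% the TATA box. A match is a description of the letters. Of the 10 genes, 9 had an entry in this table, and S100a10 had none.

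S100a10 differed little between the groups. S100a10 (chromosome 3, 93555080-93564643, plus strand), also known as p11, cannot bind calcium and forms a tetramer with annexin A2. It was at 211 and 189 CPM in stressed cells, against 247 and 161 CPM in control cells. The groups overlapped, with the controls both highest and lowest, and the log2 fold change was -0.03 (SE 0.25, edgeR adjusted p 0.977). It was 0.32 without control replicate 1. Its partner gene Anxa2 was at 1639 and 1609 CPM in stressed cells and at 2205 and 1320 CPM in control cells, with a log2 fold change of -0.12 (SE 0.30) that became 0.31 without control replicate 1. S100a10 and Anxa2 were thus both highest in control replicate 1 and lowest in control replicate 2. The ratio of S100a10 to Anxa2 CPM was 0.128 and 0.117 in the stressed libraries and 0.112 and 0.122 in the controls. Ahnak, which encodes a giant scaffold protein bound by the S100a10 and annexin A2 complex, was at 1829 and 1872 CPM in stressed and 1657 and 1713 CPM in control cells, with a log2 fold change of 0.14 (SE 0.21).

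S100a6 (chromosome 3, 90612882-90624181, plus strand), also called calcyclin and known from dividing cells, was at 85.7 and 54.1 CPM in stressed replicates 1 and 2, against 107 and 117 CPM in control replicates 1 and 2. Both stressed libraries were lower, and stressed replicate 2 was the lowest. The log2 fold change was -0.68 (SE 0.25, edgeR adjusted p 0.335), with -0.37 without stressed replicate 2 and -1.04 without stressed replicate 1. Per 1000 reads of the 13 keratinocyte markers S100a6 had 7.91 and 5.86 reads in the stressed libraries and 3.75 and 6.84 in the controls, which overlapped. Per 1000 reads of the 10 melanocyte markers it had 2.18 and 1.47 reads in the stressed libraries and 4.85 and 5.61 in the controls, both lower. Every tested gene of the set was lower on this base, as a gene with level CPM would be, because the melanocyte marker sum was higher in both stressed libraries. Among them was S100a10, at 5.36 and 5.11 reads in the stressed libraries against 11.2 and 7.73 in the controls. The part of either cell type's RNA in the S100a6 difference was not tested. Cacybp, which encodes the calcyclin-binding protein, was at 120 and 122 CPM in stressed and at 106 and 71.2 CPM in control cells (log2 fold change 0.45, SE 0.23, edgeR adjusted p 0.476).

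S100b, the one gene of the set on chromosome 10 (76253853-76261159, plus strand), was at 14.2 and 16.4 CPM in stressed cells, against 19.2 and 39.7 CPM in control cells. Both stressed libraries were lower, and control replicate 2 was 2.07 times as high as control replicate 1. The log2 fold change was -0.95 (SE 0.39, edgeR adjusted p 0.388). Leaving out control replicate 2 gave -0.32. Leaving out control replicate 1 gave -1.37, where edgeR called it at an adjusted p of 0.0138. DESeq2 did not call it in that subset, at an adjusted p of 0.0663. Per 1000 reads of the 10 melanocyte markers S100b had 0.361 and 0.443 reads in the stressed libraries and 0.87 and 1.91 in the controls, both lower. Every other tested gene of the set was lower on that base too, as a gene with level CPM would be, because the melanocyte marker sum was higher in both stressed libraries. Per 1000 reads of the 13 keratinocyte markers S100b overlapped between the groups, at 1.31 and 1.77 in stressed and 0.673 and 2.33 in control libraries. The part of either cell type's RNA in the S100b difference was not tested.

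The calprotectin genes were rare. S100a8 (chromosome 3, 90668978-90670035, plus strand) had 79 and 49 counts in stressed replicates 1 and 2 and 45 and 75 counts in control replicates 1 and 2, which are 7.42 and 4.46 CPM against 4.82 and 6.35 CPM. The groups overlapped, and the log2 fold change of 0.08 had an SE of 0.49. S100a9 (chromosome 3, 90692632-90695721, minus strand) had 2 and 11 counts in the stressed libraries and 1 and 1 in the controls, so that only stressed replicate 2 was above 3 counts. S100a8 reads exceeded S100a9 reads in each library. Of 10 neutrophil markers, 6 had 0 counts in all 4 libraries, among them Ly6g, Camp and Ngp. The list summed to 119 and 4.27 CPM in stressed and 52.6 and 0 CPM in control cells. Lactoferrin (Ltf), which epithelia also make, had 1196 and 8 counts in stressed and 464 and 0 in control cells. The chemokine receptor gene Cxcr2 had 69 and 39 counts in stressed cells and 0 and 0 in control cells. DESeq2 called it higher (adjusted p 0.000281), 1 of 2 neutrophil markers tested, against 1.75% of all tested genes. Mpo and Elane went the other way. Mpo had 0 and 0 counts in stressed cells and 24 and 0 in control cells, and Elane 0 and 0 against 3 and 0. The part of neutrophil RNA in the S100a8 and S100a9 counts was not tested. Across 7 markers of the cornifying or injured epidermis the sums were 600 and 443 CPM in stressed and 854 and 433 CPM in control cells, so that the sums overlapped. DESeq2 called 1 of the 7 higher, against 1.75% of all tested genes. This was the wound keratin gene Krt6b, with 197 and 149 counts in stressed and 0 and 0 in control cells. Krt6a, not called, was also higher in both stressed libraries, at 76.4 and 71.5 CPM against 6.75 and 55.8 CPM in the controls. Of the 7, 2 were higher, 0 lower and 5 overlapped, against 21.8% higher and 22.9% lower of all tested genes.

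S100a4 (chromosome 3, 90603771-90606045, plus strand), a myosin-binding S100 protein of fibroblasts, leukocytes and migrating cells, had 1 and 8 counts in stressed cells and 3 and 7 in control cells. It was not tested. In the deposited annotation 302 of its 584 exon bases are shared with the gene model Gm42674, which had 0 counts in every library. The featureCounts command in the file headers has no option for reads that overlap more than 1 gene, so reads in the shared part may not have been counted and the level of S100a4 is uncertain. Fibroblast markers summed over 7 genes to 25.0 and 12.8 CPM in the stressed libraries and 6.11 and 17.4 CPM in the controls. Leukocyte markers summed over 9 genes to 5.54 and 8.18 CPM in stressed and 9.86 and 44.4 CPM in control cells.

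Along chromosome 3, 14 S100 genes follow each other in the files, of which the 12 from S100a1 to S100a9 form 1 group. S100a11 and S100a10 come after a gap of 2824766 bases in which all 7 fused-type S100 genes lie. S100a1 had higher values in stressed cells, though neither test called it, and S100a13, S100a14 and S100a16, which follow it, had lower values. S100a8 and S100a10 were near 0 on the log2 fold change scale.

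**Figure D4:**
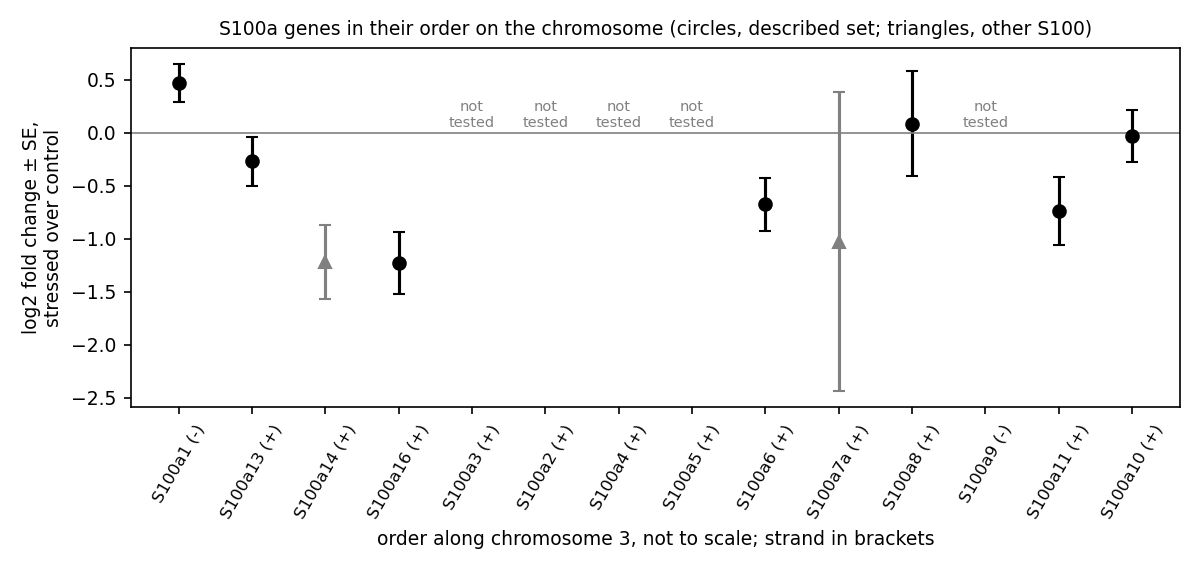
edgeR log2 fold change with its standard error, stressed over control, of the S100 genes of chromosome 3 in the order in which they lie, not to scale; circles are genes of the set of 10 and triangles other S100 genes. S100a1 at 0.47 and S100a16 at -1.23 are the extremes among the circles.

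Other S100 genes were scarce, apart from S100a14. S100a3 had 1 and 4 counts in stressed and 5 and 8 in control cells, and S100a7a had 12 and 0 against 8 and 17. S100g, the vitamin D-dependent calbindin of the gut, had 23 counts in stressed replicate 1 and 0 in stressed replicate 2 and in both controls. S100a2 and S100z reached at most 2 counts, and S100a5 had 0 in every library, which allows up to 0.323 CPM. Of 7 fused-type S100 genes, whose long products such as filaggrin carry an S100 domain, 5 were tested. Their log2 fold changes were all below 0, with a median of -1.22. DESeq2 called 1 of them lower, against 2.67% of all tested genes. In the other 4, Flg, Flg2, Hrnr and Rptn, the groups overlapped: in CPM, control replicate 1 was above and control replicate 2 below both stressed libraries. The list summed to 70.7 and 76.7 CPM in stressed cells and to 336 and 42.2 CPM in control cells. Tchh, which encodes trichohyalin of the inner root sheath, was at 5.54 and 4.55 CPM in stressed cells, against 26.6 and 27.4 CPM in control cells (DESeq2 log2 fold change -2.41, SE 0.40, adjusted p 6.29e-07, edgeR adjusted p 0.121). Without stressed replicate 2 the DESeq2 adjusted p was 0.0914. The filaggrin gene Flg had controls that were far apart, with 85 and 218 counts in stressed cells and 471 and 87 in control cells. These are 7.98 and 19.8 CPM against 50.5 and 7.37 CPM, so that control replicate 2 lay close to stressed replicate 1.

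Of 21 binding partners and receptors of S100 proteins, 19 were tested, 13 with higher and 6 with lower values in stressed cells. Their median log2 fold change was 0.13. DESeq2 called 2 higher and 0 lower, against 1.75% and 2.67% of all tested genes. EdgeR called 0, and before adjustment 4 had a p below 0.05, all with higher values, against 5.17% of all tested genes with higher values. Mcam, a melanoma cell adhesion molecule described as a receptor of S100a8 and S100a9, was at 55.8 and 75.9 CPM in stressed cells, against 22.0 and 17.7 CPM in control cells (DESeq2 log2 fold change 1.74, SE 0.32, adjusted p 8.64e-06, edgeR adjusted p 0.121). Anxa11, which encodes an annexin bound by S100a6, was at 53.6 and 69.6 CPM in stressed cells, against 19.4 and 23.1 CPM in control cells (DESeq2 log2 fold change 1.54, SE 0.31, adjusted p 6.56e-05, edgeR adjusted p 0.122). Without stressed replicate 2 neither call held, with DESeq2 adjusted p values of 0.346 for Mcam and 0.535 for Anxa11. Without stressed replicate 1 Anxa11 was also not called (0.0606).

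Other partners were near level or were not called by either test. Anxa1, which encodes the annexin bound by S100a11, was at 1302 and 1210 CPM in stressed and 1655 and 1093 CPM in control cells, overlapping between the groups. Anxa6, another annexin gene, was at 296 and 395 CPM in stressed and 195 and 247 CPM in control cells (edgeR adjusted p 0.326). Myh9, whose non-muscle myosin heavy chain is bound by S100a4, was at 242 and 264 CPM in stressed and 169 and 185 CPM in control cells (edgeR adjusted p 0.315). The receptor gene Ager, known as RAGE, had 15 and 0 counts in stressed cells and 0 and 7 in control cells. Of 25 other EF-hand genes, such as the calmodulins and calpains, 21 were tested, and neither edgeR nor DESeq2 called any. There 10 had higher and 11 lower values, the median log2 fold change was -0.03, and 2 passed an unadjusted edgeR p below 0.05, 1 in each direction, against 12.8% of all tested genes.

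The genes whose pattern over the 4 libraries was closest to S100b, by the distance between centred log2 CPM values among 9960 genes of at least 10 CPM, were Adssl1, Zfp956 and Ndufa4l2, with distances between 0.142 and 0.171 log2 units. Adssl1 was at 25.3 and 25.7 CPM in stressed cells, against 33.6 and 69.2 CPM in control cells. Closest to S100a6 were Fas, Elac1 and Gpc4, with distances between 0.106 and 0.131. Gpc4 was at 44.2 and 29.4 CPM in stressed cells, against 62.7 and 63.8 CPM in control cells. With 4 libraries many genes share a pattern, and this likeness is a description. S100a9, which was not tested, was not ranked.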

How the data were processed

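RNA-seq was measured in 2 stressed and 2 control libraries. The authors deposited raw read counts per gene, made with featureCounts 1.6.1 per the file headers, by summing reads over exons by gene name at a minimum mapping quality of 30, with no strand option. Per the submitters' processing notes, mm10, STAR 2.5.3, Trim Galore 0.4.1 and DESeq2 1.22.2 are listed, with no roles given. The headers name stressed replicates 1 and 2 as 2 and 3, so replicate numbers may differ from the authors' own. The treatment field set the groups, since the protocol text names RTX for all 4 libraries.

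Genes passing edgeR's filterByExpr (minimum count 10) were scaled by TMM and compared with the quasi-likelihood test of edgeR 4.0.16 in R 4.3.3, two-sided, with Benjamini-Hochberg adjustment over all 13348 tested genes and a threshold of 0.05. Each edgeR SE was derived from the log2 fold change and its F statistic, and each SE given with a DESeq2 log2 fold change is that of DESeq2. Alternatives were DESeq2 1.42.0, limma-voom (limma 3.58.1), other scalings and filters, the replicate block and each library left out. Scripts were tested on simulated data. The libraries of a group were not duplicates: chi-square over degrees of freedom was 18.0 for the stressed pair and 54.0 for the control pair.

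The set, the lists of partners and markers and the alternatives were chosen with earlier results of these data known, and DESeq2 with each library left out was added after seeing the data. All 10 genes were to be described whatever their result, and of the other lists those called by either tool and the known partner of a described gene. Genes named beyond that rule, such as Flg, Anxa6, Myh9 and Ager, were chosen after their values were seen. S100a7l2 was not analysed here. A Schwann cell marker list is not reported here.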

Additional observations from a re-analysis of the deposited data

How the results depend on the processing

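Limma-voom, a separate test, called 0 genes. The edgeR test called 0 genes with all libraries, and likewise by DESeq2 size factors and by upper-quartile scaling. It also called 0 with the filter of at least 5 CPM in 2 libraries and with the replicate block. It called 760 genes with no low-count filter, where S100a16 was the 1 S100 gene, and DESeq2 called 589, again with 1. With 1 library left out, edgeR called between 0 and 739 genes and between 0 and 2 of the S100 genes, and DESeq2 47, 144, 477 or 800 genes and between 0 and 2. The calls were S100b without control replicate 1, and S100a11 and S100a16 without control replicate 2. The count of 6 genes whose groups did not overlap was 6 under each of the other 2 scalings. Of 120 values of the 8 tested genes under the alternatives, 112 kept their sign. The 8 that did not were those of S100a8, which lay between -0.32 and 0.42, and of S100a10, which lay between -0.30 and 0.32, with 1 library left out by edgeR. By DESeq2 the reversed values were -0.32 and -0.093 for S100a8 and 0.053 and 0.32 for S100a10. Anxa2 lay between -0.44 and 0.31 and Anxa1 between -0.40 and 0.21 by edgeR, and by DESeq2 they reversed to 0.30 and 0.21 without control replicate 1. The cause was not tested. The replicate numbers are not said to mark a shared animal or day, the deviations of same-numbered libraries correlated at 0.172 over 13348 genes, and the replicate block called 0 genes. A group left with a single library takes its spread from the pair in the opposite group. S100a4 and S100a9 had at most 11 counts in a library, too few for the low-count filter.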
